A study of Mus musculus with 9 samples.

Results

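Caveolae are small flask-shaped pits of the plasma membrane, and their coat is built from caveolins and cavins. Caveolins are hairpin proteins inserted in the inner leaflet of the membrane, and cavins are soluble proteins that assemble on top of them. EHD2, an ATPase, sits at the neck of the pit and holds it at the cell surface, while PACSIN2 is an F-BAR protein that binds and bends membrane at the same place. Adipocytes are among the cells richest in caveolae, which are known there as sites of fatty acid uptake and of insulin receptor signaling. The 8 genes described here are Cav1, Cav2 and Cav3 (the caveolins), Ptrf, Sdpr and Prkcdbp (now named Cavin1, Cavin2 and Cavin3), Ehd2 and Pacsin2. They were taken by symbol from the 19094 genes that the files list in at least 1 sample. Of the 8 genes, 7 are listed and all 7 passed the filter on low counts, while Cav3 is listed in none of the 9 samples.

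The RNA came from 3T3-L1, a mouse fibroblast-like line that stores lipid after hormonal induction. Day 0 cells were confluent preadipocytes without induction medium, and the day 4 and day 8 cells had received a cocktail of dexamethasone, IBMX and insulin, followed by maintenance medium with insulin. Each day had 3 replicates, and each sample held between 18216114 and 20452144 estimated gene counts. All groups are of 1 cell line, cells were pooled, and nothing states that the replicates were separate cultures, so p-values measure only the spread between these samples, which may be technical. The extraction text in the labels names dorsal root ganglia (DRG), although the labels give 3T3-L1 as the cell line. The 8 neuron and Schwann cell markers examined summed to 0.8 to 2.43 FPKM per sample, whereas the 8 adipocyte markers summed to 149.2 to 154.5 FPKM on day 0 and 8459 to 9214 FPKM on day 8. FPKM is a level per length of transcript and per depth, so it is the scale used to set one gene beside another.

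The start regions of both listed caveolins and of a pair of cavins are shown as examples. Any link of these sequences to the changes in level was not tested. The 120 bases before the start of each gene, from RefSeq on GRCm38.p6, are written 5′ to 3′ on the strand of the gene, with matches to the motifs named below in capitals. The windows are chr6:17306215-17306334 on the plus strand for the first of the Cav1 starts, chr6:17281065-17281184 on the plus strand for Cav2, chr11:100970618-100970737 on the minus strand for Ptrf and chr1:51289006-51289125 on the plus strand for Sdpr.
Cav1: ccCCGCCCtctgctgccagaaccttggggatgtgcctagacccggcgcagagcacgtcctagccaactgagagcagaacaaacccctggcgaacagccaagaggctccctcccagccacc
Cav2: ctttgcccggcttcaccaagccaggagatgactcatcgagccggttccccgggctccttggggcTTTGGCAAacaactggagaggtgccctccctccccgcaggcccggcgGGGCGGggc
Ptrf: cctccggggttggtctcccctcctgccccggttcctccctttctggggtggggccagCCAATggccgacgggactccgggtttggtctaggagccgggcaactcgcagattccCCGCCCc
Sdpr: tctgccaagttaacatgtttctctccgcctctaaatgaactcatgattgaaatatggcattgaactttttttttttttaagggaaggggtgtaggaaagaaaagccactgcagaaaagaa
Both strands were searched for TATAAA, the core of the TATA box. The CAAT box was searched as CCAAT, which is the usual form at mammalian starts. The GC box, a site of SP1 and its relatives, was searched as GGGCGG. The E-box was searched as CACGTG. A core of the sites that C/EBP proteins bind was searched as TTGCNNAA, and the direct repeat bound by PPARgamma with RXR was searched as well. None of these letter patterns overlaps another in the windows shown. The first Cav1 window holds a GC box on the opposite strand. The Cav2 window holds a GC box and, on the opposite strand, a TTGCNNAA match. The Ptrf window holds CCAAT and, on the opposite strand, a GC box. The Sdpr window holds none of them. The 300-base windows of the RefSeq table reach past the start. Cav1, Ptrf and Pacsin2 have more than 1 window each, so a share of single windows is not a like measure for them. GGGCGG was found in at least 1 window of Cav1, Cav2, Ptrf, Ehd2 and Pacsin2, and in 35.7% of all 32851 windows. CCAAT was found for Cav2, Ptrf, Sdpr, Ehd2 and Pacsin2 and in 37.4% of all windows. TTGCNNAA was found for Cav2 alone among the 7 genes with windows, Cav3 included, and in 10.8% of all windows, while TATAAA was found for Cav1 alone, at its first start, and in 13.6% of all windows. CACGTG, in 7.15% of all windows, and the PPARgamma and RXR repeat, in 0.0396%, were found for none. The GC content of the Sdpr window was 43.3%, that of Cav2 64.3% and that of Ptrf 66.7%, against a median of 52.7% over all windows. Cav2 and Cav1 lie next to each other on chromosome 6 with no other coding gene between them. Ehd2 and Prkcdbp lie on chromosome 7, and Sdpr, Ptrf and Pacsin2 lie on chromosomes 1, 11 and 15.

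The comparison of day 4 with day 0, the early phase, asked which genes changed as preadipocytes became lipid-laden cells. All 7 listed genes rose. Cav1, Cav2, Sdpr and Ehd2 rose between 2.48-fold and 3.08-fold, Ptrf and Prkcdbp rose by about 2-fold with intervals that reach below it, and Pacsin2 rose by 1.18-fold. A gene is said to have risen or fallen where edgeR's quasi-likelihood test gave an adjusted p under 0.05 over the 13154 genes tested, and it is called where the change was also above 2-fold. Of the 7 genes, 6 were called up, against 9.77% of all tested genes, and 0 were called down, against 7.98%. At the adjusted p alone, 7 of 7 were higher, against 35.5% of all genes, and 0 were lower, against 33.7%. The median log2 fold change was 1.31 over the 7 genes and 0.02 over all genes tested. In bulk RNA, a change in the number of cells of a type and a change in RNA per cell cannot be told apart.

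Cav1 (gene ID 12389) encodes caveolin-1, without which non-muscle cells form no caveolae. Its FPKM was 206.43, 235.18 and 207.42 in the 3 day 0 samples. On day 4 it was 621.4, 637.99 and 657.66, and on day 8 it was 443.13, 502.37 and 495.17. All day 4 samples lay above all day 8 samples, and these above all day 0 samples. From day 0 to day 4 it rose by 1.62 on the log2 scale (SE 0.06, edgeR adjusted p = 1.2e-12), the largest of the 7 genes. From day 4 to day 8, the late phase, Cav1 fell by 0.36 on the log2 scale (SE 0.06, edgeR adjusted p = 0.00015), and over the whole process, day 8 against day 0, it was 2.4-fold higher (edgeR adjusted p = 2.3e-11). Cav1 ranked between 255 and 283 among all genes of a sample by FPKM on day 0 and between 101 and 103 on day 4.

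Cav2 (gene ID 12390) encodes caveolin-2, which needs caveolin-1 to leave the Golgi and reach the surface. Its FPKM was 21.26, 24.03 and 21.18 on day 0. It was 53.49, 53.89 and 65.63 on day 4 and 72.42, 81.99 and 74.18 on day 8. The 3 days did not overlap and stood in the order of time, unlike those of its neighbor Cav1. Cav2 rose by 1.46 on the log2 scale in the early phase (SE 0.08, edgeR adjusted p = 1e-10) and by a further 0.46 in the late phase (SE 0.07, edgeR adjusted p = 0.00012). Its whole-process change of 1.91 (95% interval 1.74 to 2.08) was the largest of the 7 genes, and that of Cav1 was 1.26 (95% interval 1.13 to 1.39).

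Cav3 encodes the muscle caveolin and had no row in any file, which list only genes with a count above 0. Muscle markers were likewise sparse. The 8 muscle markers examined summed to between 4.89 and 9.76 FPKM per sample, mostly from Des, which encodes desmin, and Myod1 was listed in no sample. Murc, the gene of the muscle cavin CAVIN4, had estimated counts of 12, 13 and 9 on day 0, 14, 5 and 1 on day 4 and 5, 2 and 2 on day 8, so its levels lay near the limit of detection.

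Ptrf (gene ID 19285) encodes cavin-1, the cavin on which caveola formation depends. Its FPKM was 206.95, 220.02 and 213.73 on day 0. It was 369.24, 437.2 and 468.28 on day 4 and 369.27, 380.93 and 398.33 on day 8. Both later days lay above day 0, and they overlapped each other, with day 4 replicate 1 the lowest sample of that day. The early change was 1.06 on the log2 scale (SE 0.07, edgeR adjusted p = 1.1e-09). The late change was -0.10 (95% interval -0.25 to 0.04, edgeR adjusted p = 0.24). On day 0, Ptrf and Cav1 were at near equal levels, with means of 214 ± 6.54 and 216 ± 16.3 FPKM (SD, n = 3).

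Sdpr (gene ID 20324) encodes cavin-2, which binds phosphatidylserine and is known to shape caveolar membrane. It was the least abundant of the 7 genes on day 0, at 15.91, 15.16 and 15.26 FPKM. It reached 33.43, 35.94 and 40.46 FPKM on day 4 and 50.76, 54.78 and 47.48 FPKM on day 8. The days did not overlap and rose in the order of time, as for Cav2. The early log2 fold change was 1.31 (SE 0.07, edgeR adjusted p = 5.9e-11) and the late one 0.52 (SE 0.06, edgeR adjusted p = 5.8e-06), and the whole process gave a 3.57-fold rise.

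Prkcdbp (gene ID 109042) encodes cavin-3, a cavin named for its binding to protein kinase C delta. Its FPKM was 99.64, 105.69 and 108.0 on day 0. It was 192.96, 207.42 and 200.73 on day 4 and 208.24, 206.1 and 217.09 on day 8. Both later days stood above day 0 and overlapped each other. The early rise was 1.01 on the log2 scale (SE 0.05, edgeR adjusted p = 3.2e-11). The late value was 0.12 (95% interval 0.01 to 0.22, edgeR adjusted p = 0.063). Its values are uncertain. Gm45667, a gene on the opposite strand, shares 20.1% of the 50-base stretches that make up the Prkcdbp transcripts in GENCODE vM21, and the strand of the libraries is not stated.

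Ehd2 (gene ID 259300) had an FPKM of 147.55, 145.83 and 146.46 on day 0. On day 4 it was 357.45, 399.19 and 382.6, and on day 8 it was 328.46, 341.93 and 335.91. The day 0 samples were close together at 147 ± 0.870 FPKM (SD, n = 3), and the days did not overlap. Ehd2 rose by 1.44 on the log2 scale in the early phase (SE 0.05, edgeR adjusted p = 4.3e-13). It fell by 0.13 in the late phase (95% interval -0.24 to -0.03, edgeR adjusted p = 0.037), a change that lost its adjusted p under 0.05 with RLE scaling factors or without some of the samples.

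Pacsin2 (gene ID 23970) had the smallest early change of the 7 genes. Its FPKM was 34.94, 35.64 and 33.82 on day 0, 40.74, 39.36 and 37.79 on day 4 and 29.83, 29.53 and 28.81 on day 8. The days did not overlap, with day 4 highest and day 8 lowest. Pacsin2 rose by 0.24 on the log2 scale in the early phase (SE 0.05, edgeR adjusted p = 0.00016) and fell by 0.37 in the late phase (SE 0.05, edgeR adjusted p = 5.3e-06). The whole-process change was -0.13 (95% interval -0.23 to -0.04, edgeR adjusted p = 0.017).

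**Figure D1:**
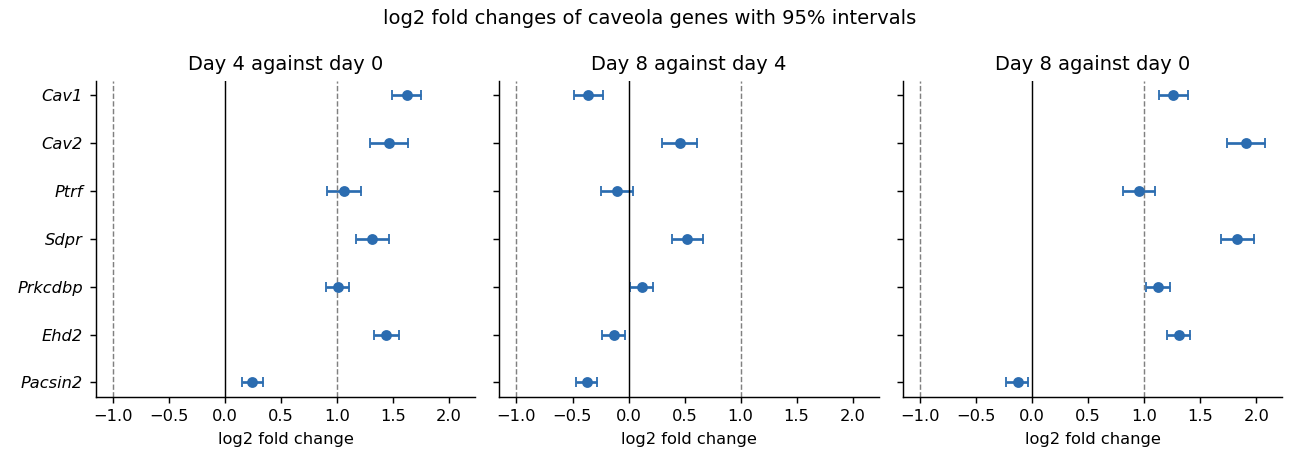
Log2 fold change of the 7 listed genes from edgeR in the early phase (day 4 against day 0), the late phase (day 8 against day 4) and the whole process (day 8 against day 0), with bars for the 95% interval and dashed lines at 2-fold. Early changes of 6 genes lie between 1.01 and 1.62, while all late changes lie between -0.37 and 0.52.

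In the late phase, Cav2 and Sdpr rose, Cav1, Ehd2 and Pacsin2 fell, and Ptrf and Prkcdbp did not pass the test. The fall of Ehd2 did not hold with RLE factors or without some of the samples. None of the 7 changed above 2-fold, so 0 were called, against 4.24% of all genes up and 2.81% down. At the adjusted p alone, 2 of 7 were higher, against 22.5% of all genes, and 3 were lower, against 22.7%. Counts among 7 genes are too small to set the list apart from these shares. None of the 20 alternatives, DESeq2 and limma included, called a member above 2-fold. Over the whole process 5 of 7 genes were called up, against 10.3% of all genes, and 0 were called down, against 7.7%. At the adjusted p alone, 6 were higher, against 34.8% of all genes, and Pacsin2 was lower, against 36.2%. Ptrf was the gene that rose without a call, by 0.95 on the log2 scale (SE 0.07, edgeR adjusted p = 3.9e-09). The 3 comparisons share samples, so they are not independent of each other.

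Ptrf and Prkcdbp lay at the 2-fold line in the early phase, and their calls turned on single samples. Ptrf had a log2 fold change of 0.99 without day 4 replicate 3. Prkcdbp had 0.98 without day 0 replicate 1, 0.97 without day 4 replicate 2 and just under 1 without day 8 replicate 3. In the late phase, Ptrf fell by 0.20 on the log2 scale (edgeR adjusted p = 0.0071) without day 4 replicate 1. Without day 4 replicate 2, the late change of Prkcdbp was 0.17 (edgeR adjusted p = 0.019) and that of Ehd2 was -0.06 (edgeR adjusted p = 0.35). The late adjusted p of Ehd2 was also above 0.05 without day 0 replicate 3, day 4 replicate 3 or any 1 of the day 8 samples. Without day 8 replicate 3, the whole-process change of Pacsin2 was -0.11 (edgeR adjusted p = 0.1).

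The proportions between the genes, as ratios of FPKM within a sample, are given as a description without a test. The ratio of Cav1 to Cav2 was 9.71 to 9.79 on day 0, 10.02 to 11.84 on day 4 and 6.12 to 6.68 on day 8. The day 8 samples thus had less Cav1 per Cav2 than all samples of the other days. The ratio of Cav1 to Ptrf was 1.01 ± 0.0509 on day 0, 1.52 ± 0.148 on day 4 and 1.25 ± 0.0601 on day 8 (SD, n = 3). Cav1 exceeded Ptrf in all 6 samples after induction. Among the cavins, Ptrf to Sdpr went from 13.01 to 14.51 on day 0 to between 6.95 and 8.39 on day 8, while Ptrf to Prkcdbp was 1.98 to 2.08 on day 0, 1.91 to 2.33 on day 4 and 1.77 to 1.85 on day 8. All day 8 samples were thus below the other days in both ratios. The ratio of Ehd2 to Pacsin2 was 4.09 to 4.33 on day 0 and 11.01 to 11.66 on day 8. The 7 genes together held 0.199% to 0.212% of all estimated counts of a sample on day 0, 0.449% to 0.503% on day 4 and 0.403% to 0.429% on day 8.

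**Figure D2:**
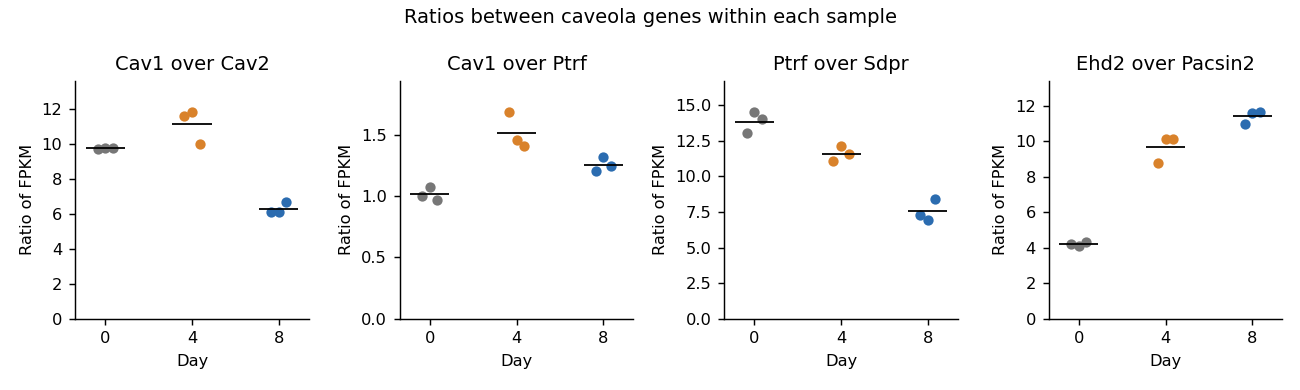
Ratios of FPKM between pairs of caveola genes within each sample on days 0, 4 and 8, with 1 point per replicate (n = 3 per day) and a bar at the mean, on linear axes from 0. Cav1 over Cav2 and Ptrf over Sdpr were lowest on day 8, Cav1 over Ptrf was highest on day 4, and Ehd2 over Pacsin2 was lowest on day 0.

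Relatives of EHD2 and PACSIN2 were followed for comparison, since EHD proteins share an ATPase fold and act at other endocytic membranes. Ehd3 had a day 0 range of 6.1 to 6.77 FPKM, a day 4 range of 13.33 to 15.53 and a day 8 range of 7.17 to 7.89. It rose by 1.23 on the log2 scale (SE 0.07, edgeR adjusted p = 1.8e-10) and then fell by 0.89 (edgeR adjusted p = 3.2e-08), so most of its rise was gone by day 8, when Ehd2 was still 2.47-fold above day 0. Ehd1 rose by 0.30 and then 0.33, Ehd4 fell by 0.42 in the early phase, and Pacsin3 had an early log2 fold change of 0.06 (edgeR adjusted p = 0.35). Of the 6 relatives, Murc included, 5 were tested, Pacsin1 being too low. The early phase had 1 called up (Ehd3), against 9.77% of all genes, and 0 called down, against 7.98%. The late phase had none called, against 4.24% of all genes up and 2.81% down. The whole process had 0 called up, against 10.3% of all genes, and 1 called down (Murc, at the low counts given above), against 7.7%. Their median early log2 fold change was 0.06.

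Other membrane scaffolds gave another comparison. Flotillins and the related proteins stomatin and erlins scaffold cholesterol-rich membrane without forming caveolae. Stom rose from a mean of 34.0 to 79.9 FPKM in the early phase, a log2 fold change of 1.30 (SE 0.05, edgeR adjusted p = 1.7e-12), and was the 1 of 5 called up, against 9.77% of all genes. Flot2 rose by 0.50 and Flot1 by 0.32, while Erlin1 and Erlin2 had values of 0.11 and -0.11 that did not pass the test. In the late phase none of the 5 was called, against 4.24% of all genes up and 2.81% down, and Stom, Flot1, Flot2 and Erlin1 fell by 0.12 to 0.24. At the adjusted p alone, 4 of the 5 were thus lower and 0 were higher, against 22.7% and 22.5% of all genes. With RLE factors the late change of Flot1 was -0.10 (edgeR adjusted p = 0.072), which left 3 lower. Stom was the 1 called up over the whole process, against 10.3% of all genes. The median log2 fold change of the 5 genes was 0.32 in the early phase and -0.14 in the late phase.

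The clathrin coat is the other main route of uptake at the plasma membrane. Of its 20 genes examined, 19 were listed and 17 tested, and none was called up in the early phase, late phase or whole process, against 9.77%, 4.24% and 10.3% of all genes. Dab2, an adaptor that carries receptors into clathrin pits, was the 1 called down, against 7.98% of all genes in the early phase. Its log2 fold change was -1.05 (SE 0.07, edgeR adjusted p = 5.6e-10), with a 95% interval of -1.18 to -0.91 that reaches across the 2-fold line. At the adjusted p alone, 7 of 17 rose and 5 fell in the early phase, against 35.5% and 33.7% of all genes. Cltc, the clathrin heavy chain, fell by 0.40 and Ap2s1, the small subunit of the AP2 adaptor, rose by 0.76. The summed FPKM of the list was 958.7 to 971.2 on day 0, 946 to 966.2 on day 4 and 911.5 to 938 on day 8. That of the caveola genes was 732.7 to 781.5, 1669 to 1853 and 1502 to 1598. FPKM lacks the scaling factors of the edgeR fit. In that fit the median whole-process log2 fold change of the clathrin list was -0.04, against -0.02 over all genes. With scaling by library size alone, or by upper quartiles, which lower the early values of all genes alike, 5 clathrin genes rose and 7 fell, and no gene that had passed the test changed sign.

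**Figure D3:**
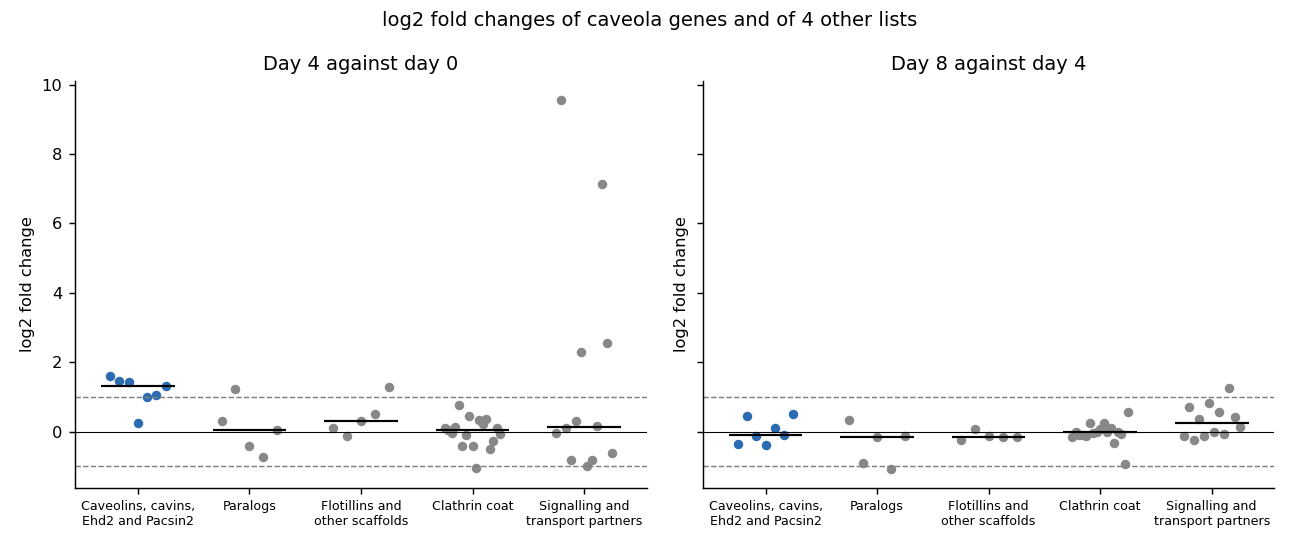
Early and late log2 fold changes from edgeR of each tested gene of the caveola genes, their relatives, their partners, the other membrane scaffolds and the clathrin coat, with 1 point per gene and a bar at the median of the list. The early median was 1.31 for the caveola genes and 0.06 for the clathrin coat.

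Proteins known to reside in caveolae, to bind caveolins or to modify them formed a list of 12 genes. Slc2a4, which encodes the insulin-responsive glucose transporter GLUT4, went from a mean of 0.163 FPKM on day 0 to 22.3 on day 4 and 51.5 on day 8. Cd36, which encodes a fatty acid transporter, went from 0.113 to 86.4 and 136.5 FPKM. Both genes and Nos3, the endothelial nitric oxide synthase at under 1 FPKM throughout, were among the 4 of 12 called up between day 0 and day 4, against 9.77% of all genes, and also between day 0 and day 8, against 10.3%. Slc2a4 was called up again in the late phase (log2 fold change 1.26, SE 0.12, edgeR adjusted p = 3.1e-07).

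At the adjusted p alone, 6 of the 12 genes of this list were higher and 4 were lower in the early phase. The shares of all genes were 35.5% and 33.7%. With each of the other scalings, 5 were higher. The 4 lower genes were Prkca, Src, Fyn and Prkcd. Prkca, protein kinase C alpha, was the 1 of 12 called down in either comparison with day 0, against 7.98% and 7.7% of all genes. It stood at 0.498 of its day 0 level on day 4 (edgeR adjusted p = 1.2e-10) and 0.49 of it on day 8 (edgeR adjusted p = 9.2e-11). Its 95% intervals on the log2 scale, -1.12 to -0.89 and -1.15 to -0.91, reach across the 2-fold line. Src, which phosphorylates caveolin-1, fell by 0.62. Fyn, a kinase of the same family, fell by 0.82, and Prkcd, the kinase that cavin-3 binds, fell by 0.81. In the late phase Prkcd rose by 0.58 (edgeR adjusted p = 1.9e-07), Fyn rose by 0.38 (edgeR adjusted p = 0.00026) and Src rose by 0.14 (edgeR adjusted p = 0.03), although Src did not pass the test with library size alone (0.10, edgeR adjusted p = 0.12). The mean FPKM of Prkcd was 44.0 on day 0, 24.0 on day 4 and 34.7 on day 8. Abl1 and Ror1 had early values of -0.04 and 0.18 and did not pass the test. Insr, the insulin receptor, rose by 0.30 in the early phase (SE 0.05, edgeR adjusted p = 9.4e-05). The median of the 12 genes was 0.15 in the early phase and 0.26 in the late phase.

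Markers of the cells themselves moved in the same interval. All 8 adipocyte markers were called up in the early phase, against 9.77% of all genes. Their summed FPKM on day 4 was 5847 in replicate 1, 6913 in replicate 2 and 8304 in replicate 3. Replicate 1 of day 4 was also the lowest of its day in Cav1, Cav2, Ptrf, Sdpr, Prkcdbp and Ehd2, and the highest in Pacsin2. The share of all genes with the same order of replicates was not computed. Of the preadipocyte and fibroblast markers, 7 of 8 were tested. In the early phase 2 were called down, Dlk1 at -2.13 and Ly6a at -1.90 on the log2 scale, and at the adjusted p alone 6 were lower and 1 was higher. The shares of all genes were 7.98% called down, 33.7% lower and 35.5% higher. The 1 that rose was Pdgfra, by 0.84 (edgeR adjusted p = 4.3e-10). Between day 4 and day 8, 4 of these 7 markers were higher and 1 was lower, against 22.5% and 22.7% of all genes, and Dlk1 was called up, by 1.24 (edgeR adjusted p = 9.3e-11). The list, led by Col1a1, summed to 2858 to 2974 FPKM on day 0, 1739 to 1886 on day 4 and 3057 to 3107 on day 8. Endothelial cells, which are also rich in caveolae, were represented by 8 markers that summed to at most 1.1 FPKM per sample, with Tie1 and Cldn5 listed in none. Macrophage markers summed to at most 4.12 FPKM. The part of the marker changes in the caveola changes was not tested.

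Over the 11466 genes compared, likeness of pattern was measured as the root mean square difference of log2 CPM, centered on each gene's mean over the 9 samples. The genes most like Cav1 were Foxo1 (0.058), Ahcyl2 (0.069), Nampt (0.0853), Pkdcc (0.105) and Dlc1 (0.106). Foxo1, which encodes a transcription factor restrained by insulin signaling, had early and late log2 fold changes of 1.62 and -0.39. Among the caveola genes, Ehd2 was the nearest to Cav1, at rank 15 with 0.122, and Cav2 came at rank 673. The genes most like Ptrf were Lias (0.0267), Rad51d (0.0435), Ppp2r4 (0.0531), Cd320 (0.0532) and Ube2a (0.0568), and Prkcdbp came at rank 119 with 0.117.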

How the data were processed

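Total RNA of 9 samples was sequenced. Reads of low quality were discarded by the authors, the rest were mapped with HISAT and Bowtie2, and RSEM gave the expression estimates. The submitters' processing notes also name CASAVA 1.4. The genome build is not given in the sources used here. The authors deposited an expected count per gene, which is RSEM's estimate without normalization, and an FPKM, scaled to effective length and depth. They also deposited a transcript length per gene. A gene without counts has no row in a deposited file.

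Members and gene lists were chosen with earlier results of these data known. Expected counts were rounded, and edgeR 4.0.16 was run in R 4.3.3. The steps were filterByExpr, TMM factors (0.954 to 1.05) and a quasi-likelihood model of all 9 samples with 1 coefficient per day. Benjamini-Hochberg adjustment ran over 13154 genes. The SE is the log2 fold change divided by the square root of F, and 95% intervals use its t distribution. All members and listed genes may be named, and for Cav1 and Ptrf the 5 genes of most similar pattern whose mean log2 CPM was not below 1. Of 19094 gene IDs, 19040 matched the RefSeq table, and 26 symbols turned into dates were restored by ID. RefSeq promoter windows were matched by symbol for 7 of 8 genes, and Prkcdbp had none. Alternatives were RLE, upper-quartile and no scaling factors, DESeq2 1.42.0, edgeR's exact test, limma 3.58.1 on log2(FPKM + 1) and log2(FPKM + 0.1), other filters, a replicate block, pairwise fits and leaving out each sample. The fits were tested on simulated data. Some listed genes are not reported here by name.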

Additional observations from a re-analysis of the deposited data

How the results depend on the processing

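The log2 fold changes of the 7 genes in the 3 comparisons gave 21 values. Over 20 alternatives no called value changed sign, and 409 of 420 recomputed values kept their direction and their call. The other 11 were lost early calls of Ptrf and Prkcdbp, and the adjusted p alone moved across 0.05 in 12 recomputed values, all of them listed here or beside the results. With RLE factors, the late change of Ehd2 was -0.11 (edgeR adjusted p = 0.072) and that of Prkcdbp 0.14 (edgeR adjusted p = 0.034), and with DESeq2 that of Prkcdbp was 0.14 (DESeq2 adjusted p = 0.032). The early call of Ptrf was lost with library size alone (0.99) and with limma (0.98 and 0.99), and that of Prkcdbp with upper-quartile factors (0.96), library size alone (0.94) and limma (0.93 and 0.94), which left 4 or 5 members called up. With library size alone the whole-process median of all genes was -0.13 in place of -0.02, and Pacsin2 was at -0.24, or -0.11 relative to that median, the same as in the main values. Leaving out 1 sample at a time gave 5 to 6 members called up in the early phase, and 0 to 1 members lower at the adjusted p over the whole process.

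Limma on log2(FPKM + 1), which shrinks changes of low genes, called 708 genes up and 565 down in the early phase, 224 and 136 in the late phase, and 753 and 528 over the whole process. With at least 10 counts in every sample, which tests fewer genes, 831 genes were up in the early phase, and 310 were up and 173 down in the late phase. With the replicate block, members called up numbered 6, 0 and 5 in the early phase, late phase and whole process, and all genes called up 1287, 556 and 1360. Across days, deviations correlated at 0.0308 on average for samples of the same number (-0.0348 to 0.075). For samples of different number the average was -0.0154 (-0.1 to 0.0628). The ranges overlap and the values are small, so they cannot decide whether the numbers pair the samples. At this depth Murc and Pacsin1 had counts at or near 0 and Cav3 had no row, so values for them rest on few counts or none.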

Other observations

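The files give a transcript length per gene and sample, which is weighted by the estimated abundance of a gene's transcripts. For Cav1, which has 2 transcripts in the files, it was 2582.62 to 2586.77 bases on day 0, 2569.68 to 2574.17 on day 4 and 2584.62 to 2586.58 on day 8, so all day 4 samples lay below all others. For Cav2, also with 2 transcripts, it was 2681.16 to 2697.95 on day 0, 2693.17 to 2718.78 on day 4 and 2707 to 2722.66 on day 8, and neighboring days overlapped. The shift of the Cav1 length was small beside its change in level. The share of each transcript was not computed.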
